A study of Mus musculus with 67 samples.

Results

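Interferon-inducible GTPases are described here through 10 genes, Gbp2, Gbp3, Gbp4, Gbp5, Gbp7, Igtp, Irgm1, Irgm2, Iigp1 and Tgtp2, taken by name from the 35612 genes in the deposited tables. The estimated reads of each gene's transcripts were summed in every library and scaled to the library total as CPM, and all 10 passed the filter on low counts in every comparison. RNA sequencing covered 60 libraries in 20 groups of 3 from C57BL/6 mice, made of B cells or CD4+ T cells purified with enrichment kits from spleen and lymph nodes. The EAE groups came from animals immunized with a MOG peptide, which induces experimental autoimmune encephalomyelitis, and the naive groups from animals that were not immunized. Stimulated cells met beads for 18 hours that carried anti-CD3 (T cells) or anti-IgM/G (B cells) together with either anti-Btla, an antibody to the inhibitory receptor Btla, or a control Ig, each with or without soluble IFNb. Unstimulated cells received none of these, and the labels give no culture time for them. Receptor stimulation therefore cannot be told apart from 18 hours of culture with beads. The ages of these animals were given only as the study's general range. The libraries of a group were numbered 1 to 3 with no statement that they came from separate animals, so that p-values measure the spread between libraries, which may be technical.

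These GTPases belong to a pair of related families. The guanylate-binding proteins (Gbp genes) and the immunity-related GTPases (Igtp, Irgm1, Irgm2, Iigp1 and Tgtp2) assemble on membranes, where they are known for attacking the vacuoles of intracellular bacteria and parasites. Irgm1, Irgm2 and Igtp (also called Irgm3) act as regulators that keep the effector GTPases Iigp1 and Tgtp2 off the cell's own membranes. Transcription of both families follows interferon signaling: type I interferons such as IFNb activate factors that bind the interferon-stimulated response element (ISRE), and interferon-gamma activates factors that bind the gamma-activated site (GAS).

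Gbp5, Gbp7, Gbp3 and Gbp2 lie next to each other on chromosome 3 (GRCm38, chr3:142493978-142638008) and are read from the plus strand. Gbp4 lies on chromosome 5 (chr5:105115767-105139586, minus strand). Irgm1 (chr11:48861968-48871683) and Tgtp2 (chr11:49057194-49064206) are read from the minus strand of chromosome 11, and Igtp (chr11:58199556-58207591) and Irgm2 (chr11:58199618-58222782) overlap on its plus strand. RefSeq start sites (GRCm38.p6) were matched for 8 of the 10 genes, all but Gbp4 and Iigp1, and gave 9 promoter windows of 300 bases, Gbp3 having 2. An ISRE, searched as GAAANNGAAA or its reverse complement TTTCNNTTTC, was found in 8 of the 9 windows and in 3.44% of all 32851 promoter windows. A GAS, searched as TTCNNNGAA, was found in 5 of the 9 windows and in 8.30% of all. The 100 bases before the start site are shown for 6 genes as examples. These stretches hold the ISRE of each and, for Tgtp2, Igtp and Irgm2, a GAS that ends 2 bases before it. The same stretch of Gbp7, not shown, also holds an ISRE, with a GAS that ends 25 bases before it. Capitals mark the motif letters, and overlapping matches run together.
Gbp2 (chr3:142620563-142620662, plus strand): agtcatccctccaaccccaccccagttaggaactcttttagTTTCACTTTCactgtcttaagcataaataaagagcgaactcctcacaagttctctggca
Gbp3 (chr3:142559944-142560043, plus strand): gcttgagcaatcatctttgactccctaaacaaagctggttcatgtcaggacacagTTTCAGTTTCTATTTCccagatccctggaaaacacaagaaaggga
Irgm1 (chr11:48871421-48871520, minus strand): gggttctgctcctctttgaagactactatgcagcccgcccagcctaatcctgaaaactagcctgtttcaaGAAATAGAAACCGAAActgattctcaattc
Tgtp2 (chr11:49064213-49064312, minus strand): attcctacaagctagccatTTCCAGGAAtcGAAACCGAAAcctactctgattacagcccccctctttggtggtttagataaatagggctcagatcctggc
Igtp (chr11:58199456-58199555, plus strand): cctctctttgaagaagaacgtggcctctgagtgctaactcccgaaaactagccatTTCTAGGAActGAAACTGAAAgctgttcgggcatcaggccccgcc
Irgm2 (chr11:58214877-58214976, plus strand): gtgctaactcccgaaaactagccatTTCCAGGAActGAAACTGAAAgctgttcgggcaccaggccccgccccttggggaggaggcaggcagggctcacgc
The Igtp and Irgm2 sequences share the same ISRE letters and differ within the variable letters of the GAS. Gbp3 and Irgm1 held 2 overlapping ISRE matches each and no GAS in these stretches. A match shows only that these letters are present in the window.

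**Figure D1:**
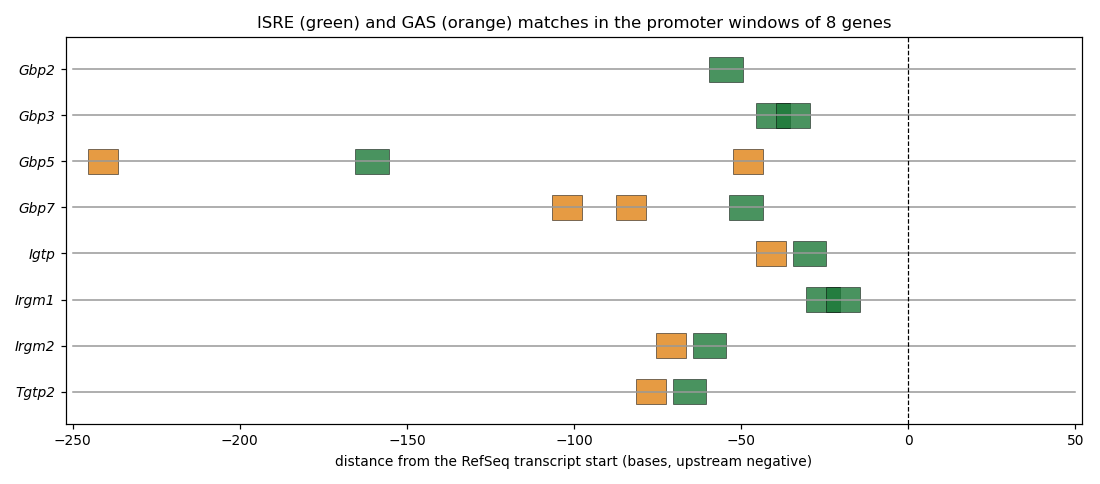
Position of each ISRE (green) and GAS (orange) match, in bases from the RefSeq start site, for the 8 genes with a promoter window (1 row a gene, upstream to the left; for Gbp3 the window with matches). In Igtp, Irgm2 and Tgtp2 the GAS lies 2 bases upstream of the ISRE.

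Library depth was 7.30M to 34.0M assigned reads in T cells and 6.68M to 62.0M in B cells. The labelled cell types matched their defining markers: Cd3e lay between 414 and 759 CPM in T cells and at 1.14 CPM or less in B cells, and Cd79b at 17.9 CPM or less in T cells and between 517 and 1021 CPM in B cells. The 7 B cell markers summed to 3905 CPM or more in B cells, 25.1 to 73.6 CPM in naive T cells and 10.3 to 199.6 CPM in EAE T cells. An unstimulated EAE T library had the highest of these T cell sums. The 7 CD4 T cell markers summed to 2133 CPM or more in T cells and 14.2 CPM or less in B cells. Cd8a lay at 0.80 to 6.16 CPM in EAE T cells, against 213 to 344 CPM in naive T cells, which the labels also call CD4+. One library of each EAE B group stood apart for the genes described here. EAE B replicate 1 had the highest level of all 10 genes in all 5 arms, that is in 50 of 50 cases, with a summed level of 951 to 1524 CPM, against 457 to 593 CPM in replicates 2 and 3. The same library was 2.39 to 6.43 times the mean of the other two for Igtp, 2.99 to 7.15 times for Gbp2 and 9.73 to 23.9 times for Ifng, while Gbp3 and Gbp5 differed by 1.26 to 1.81 times. In naive B cells replicate 1 was also the highest in 47 of 50 cases, by at most 2.03 times for any of the 10 genes. The 5 NK cell markers summed to 15.1 to 23.8 CPM in EAE B replicate 1 over the 5 arms, against 2.09 to 6.27 CPM in EAE B replicates 2 and 3. In naive B cells these markers summed to 5.62 to 13.8 CPM, and replicate 1 was not the highest in any arm. Their part in what sets EAE B replicate 1 apart was not tested.

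**Figure D2:**
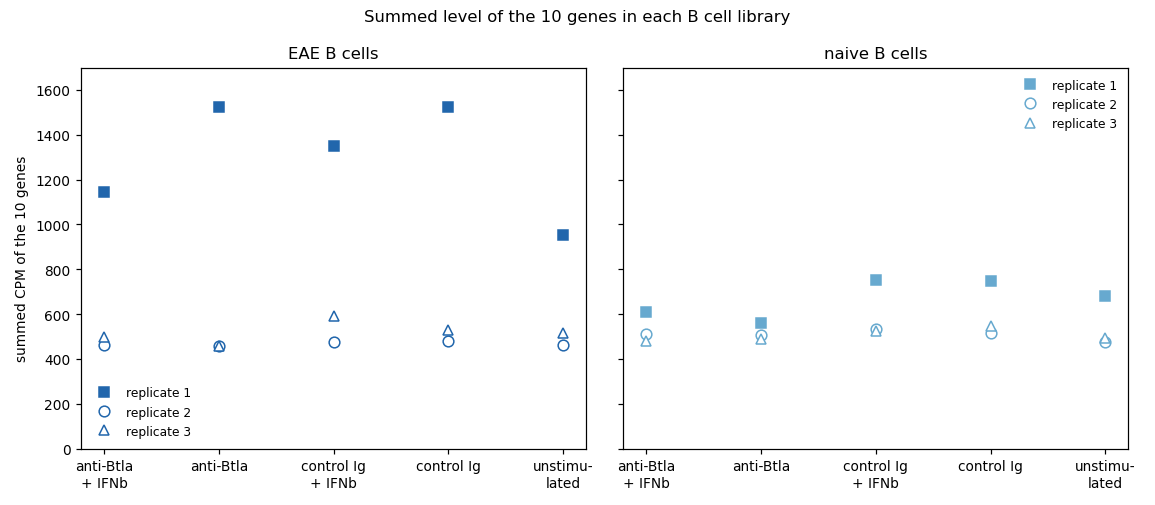
Summed CPM of the 10 genes (y axis) in each B cell library by arm (x axis), EAE left and naive right, with replicate 1 as filled squares. EAE B replicate 1 lies between 951 and 1524 CPM in the 5 arms, and every other EAE B library between 457 and 593 CPM.

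Across the 20 groups the summed level of the 10 genes was higher in every T cell library than in any naive B cell library, and within T cells it was lowest in unstimulated naive cells. The sum was 5302 to 7132 CPM in stimulated EAE T cells and 8677 to 9773 CPM in unstimulated ones. Naive T cells had 3685 to 5923 CPM after stimulation and 1116 to 1764 CPM without it. In naive B cells the sum stayed between 476 and 752 CPM. Unstimulated EAE T cells thus held the highest sum of any group, just under 1% of all assigned reads. In bulk samples a different number of expressing cells and a different amount of RNA per cell cannot be told apart.

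**Figure D3:**
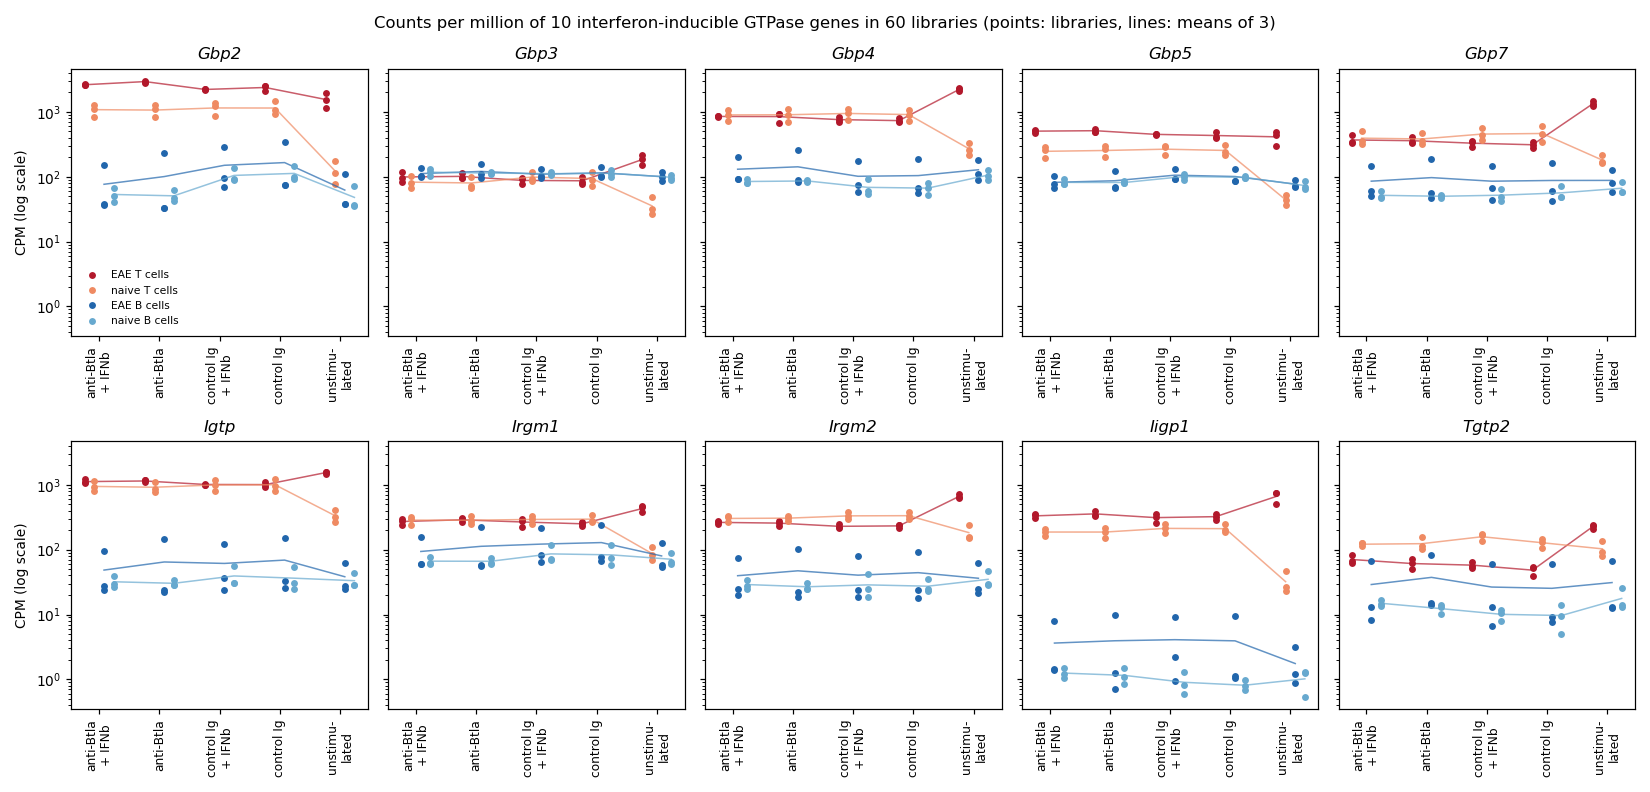
CPM on a log scale (y axis) of each gene in all 60 libraries by arm (x axis), with a color for each cell set, points for libraries and lines through the means of 3. The orange and red points part at the unstimulated arm, where naive T cells are low and EAE T cells high for most genes, and the IFNb arms lie beside their arms without IFNb.

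Levels between genes were compared as TPM, which accounts for transcript length. In EAE T cells on control Ig beads Gbp2 was highest at 1005 ± 55.4 TPM, above Igtp at 556 ± 16.7 TPM, and Gbp3 was lowest at 37.2 ± 2.66 TPM (SD, n = 3). Without stimulation the same cells had 739 ± 81.6 TPM of Igtp, 647 ± 70.4 TPM of Gbp4 and 565 ± 176 TPM of Gbp2, whose libraries overlapped. In naive T cells on control Ig beads Igtp at 489 ± 113 TPM and Gbp2 at 425 ± 103 TPM led and overlapped, and Gbp4 at 283 ± 54.7 TPM stood above the 6 remaining genes other than Tgtp2. Tgtp2 had 798 ± 48.3 TPM in unstimulated EAE T cells, but 16.9 to 72.0% of its T cell reads were assigned to a 370-base noncoding transcript, which raises its TPM, so its place among the genes was not read. In B cells the order was flatter. Gbp3 led in unstimulated naive B cells at 42.8 ± 4.32 TPM, neighbours in the order overlapped down to Irgm2, and Iigp1 stood below the rest at 0.656 ± 0.259 TPM.

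The tables split several genes among transcripts that code for protein and transcripts that do not. For Gbp4 a single transcript annotated as a target of nonsense-mediated decay took 73.5 to 82.1% of the gene's reads in T cells and 71.7 to 88.4% in B cells. Gbp5 reads fell on its coding transcript at a median of 31.3% in T cells and 7.03% in B cells. For Gbp2, Gbp3, Gbp7, Igtp and Irgm2 at least 97.0% of the reads were assigned to coding transcripts in every library. Tgtp2 shares 90.5% of its 31-base words with other genes, 89.2% with its near copy Tgtp1, and the split of reads between the pair is therefore uncertain. Tgtp2 took 8.51 to 29.6% of the pair's CPM in T cells and 44.7 to 89.6% in B cells. The transcripts listed for T cells and for B cells differ in number, and the part of this in the contrast was not tested. Igtp shares 15.9% of its words with Irgm2, with which it overlaps on the same strand, Gbp7 shares 10.8% with a processed pseudogene, and Gbp4 overlaps Gbp8 and Gbp9.

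Unstimulated T cells were compared with unstimulated B cells to place the baseline of each gene. The deposited values list 116945 transcripts for T cells and 116546 transcripts for B cells. This difference in processing goes with cell type in every library, so that the comparison cannot separate them. Its part in the T against B differences was not tested. In EAE cells all 10 genes were higher in T cells, where 27% of all tested genes were called higher, and in naive cells 7 of 10 were higher and 2 lower, where 30.6% of all genes were called higher and 32.9% lower. Iigp1, an effector GTPase, showed the widest gap. It had 506, 738 and 735 CPM in EAE T cells, against 3.18, 0.882 and 1.20 CPM in EAE B cells, a log2 difference of 8.63 ± 0.49 (SE, n = 3 each, adjusted p = 1.17e-06). It also had 46.6, 22.8 and 26.9 CPM in naive T cells, against 1.24, 0.541 and 1.28 CPM in naive B cells, a log2 difference of 4.95 ± 0.33 (adjusted p = 2.27e-07). The lowest T cell library thus lay above the highest unstimulated B cell library, and a median of 74.8% of the few Iigp1 reads in B cells were assigned to a single noncoding transcript. Without EAE B replicate 1 all 10 genes stayed higher in EAE T cells, by 1.07 (Gbp3) to 9.35 (Iigp1) on the log2 scale. Igtp followed Iigp1, with log2 differences of 5.39 ± 0.39 in EAE cells and 3.34 ± 0.18 in naive cells.

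Gbp3 and Gbp5 were the 2 genes that were lower in naive T cells than in naive B cells. Gbp3 had 48.8, 26.7 and 31.4 CPM in naive T cells, against 108, 96.8 and 90.1 CPM in naive B cells (log2 difference -1.48 ± 0.17, adjusted p = 2.08e-05). Gbp5, a GTPase linked to inflammasome assembly, had 52.6, 36.9 and 43.3 CPM in naive T cells, against 85.5, 64.2 and 69.8 CPM in naive B cells (log2 difference -0.72 ± 0.13, adjusted p = 0.000578). Neither pair of groups overlapped. In EAE cells both genes were higher in T cells, by 0.94 and 2.50 on the log2 scale. Irgm1 did not pass the test in naive cells, with a log2 difference of 0.30 (95% interval -0.07 to 0.67), although it passed without naive B replicate 1 (0.48, adjusted p = 0.0172) or without naive T replicate 2 (0.44, adjusted p = 0.0488), and with a replicate block (0.31, adjusted p = 0.0043).

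EAE was then set against naive animals in unstimulated cells. In T cells all 10 genes were higher in EAE, by 1.23 to 4.48 on the log2 scale with a median of 2.72, where 18.6% of all tested genes were called higher and the median difference over all genes was 0.00. Iigp1 had 506, 738 and 735 CPM in EAE T cells, against 46.6, 22.8 and 26.9 CPM in naive T cells, a log2 difference of 4.48 ± 0.26 (SE, n = 3 each, adjusted p = 7.09e-06). Gbp2, a GTPase recruited to pathogen vacuoles, had 1158, 1971 and 1538 CPM in EAE T cells, against 178, 76.8 and 113 CPM in naive T cells (log2 difference 3.76 ± 0.31, adjusted p = 3.96e-05). For each of the 10 genes the lowest EAE T library lay above the highest naive T library.

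Gbp5 and Gbp4 differed by 9.95-fold and 8.67-fold between EAE and naive T cells. Gbp4 had 2324, 2101 and 2234 CPM in EAE T cells, against 334, 217 and 262 CPM in naive T cells. The regulators differed less: Irgm1 was 5.25-fold, Igtp 4.89-fold and Irgm2 3.84-fold higher in EAE T cells. Tgtp2 was 2.34-fold higher, while its near copy Tgtp1, with which the split of reads is uncertain, was 5.70-fold higher. Gbp7 and Gbp3 were 7.83-fold and 5.57-fold higher. The EAE and naive T cell libraries also differed in markers of other cells. The 2 CD8 T cell markers summed to 19.6 to 26.2 CPM in unstimulated EAE T cells, against 926 to 1096 CPM in naive ones. The 9 myeloid markers summed to 136 to 351 CPM against 37.5 to 48.8 CPM. The 7 B cell markers summed to 21.9 to 199.6 CPM against 35.2 to 73.6 CPM. The 5 NK cell markers summed to 49.0 to 65.9 CPM against 103 to 137 CPM, but did not move together. Klrk1 (mean 24.9 against 90.4 CPM) and Eomes (6.85 against 17.2 CPM) were lower in EAE T cells. Ncr1 (7.37 against 2.62 CPM) and Klrb1c (10.15 against 3.97 CPM) were higher, and Gzma (7.06 against 5.59 CPM) was not called. Ifng, the gene for interferon-gamma, had 22.3, 224 and 87.0 CPM in EAE T cells, against 1.17, 1.71 and 1.02 CPM in naive T cells. The part of these markers and of Ifng in the differences was not tested.

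In B cells none of the 10 genes passed the same test, where 0.0492% of all genes were called, and none had an unadjusted p under 0.05 in edgeR. DESeq2 also called 0 of them. Their log2 differences lay between 0.07 for Gbp3 and 0.86 for Tgtp2, with intervals that spanned 0. Without EAE B replicate 1 they lay between -0.58 (Irgm2) and 0.07 (Gbp7), 8 of them below 0, and none was called. Tgtp2 had 67.7, 12.5 and 13.1 CPM in EAE B cells, against 25.9, 14.1 and 13.2 CPM in naive B cells. For this gene EAE B replicate 1 was the highest of the 6 libraries and EAE B replicates 2 and 3 the lowest.

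**Figure D4:**
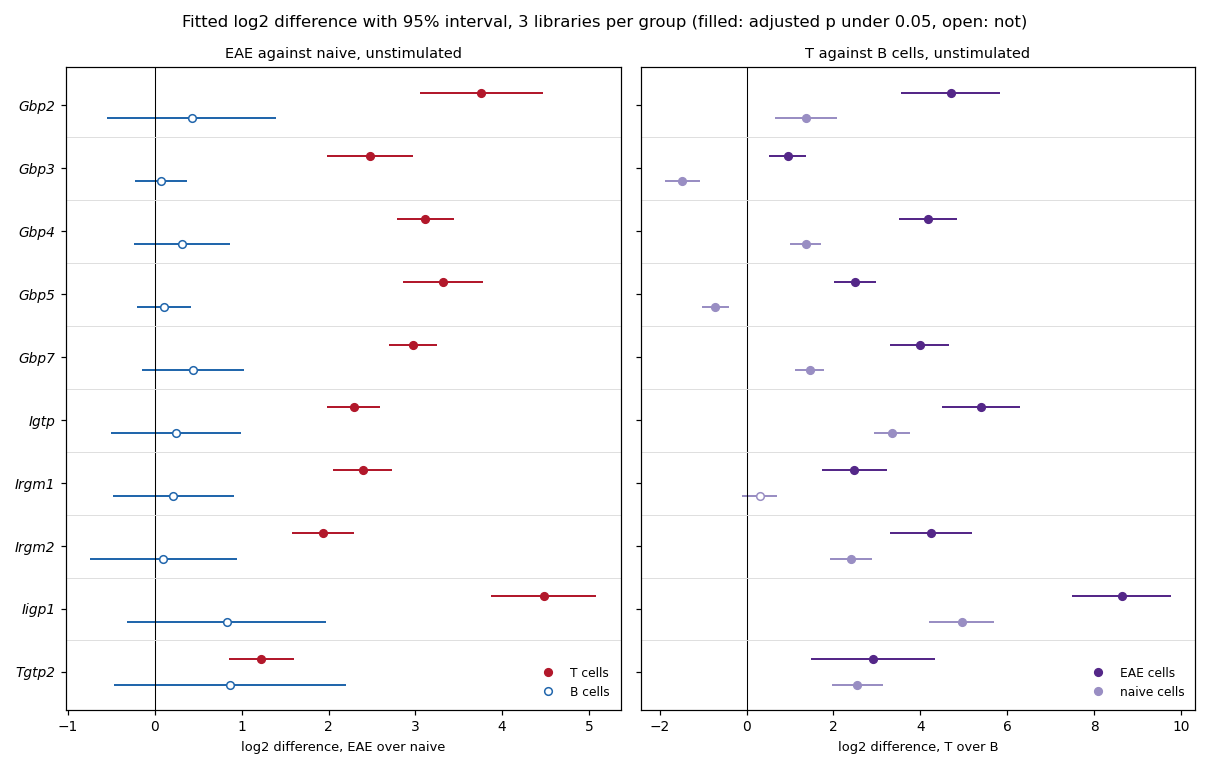
Fitted log2 difference (x axis) of each gene (y axis) with its 95% interval, for EAE over naive in unstimulated T and B cells (left) and for T over B in unstimulated EAE and naive cells (right), 3 libraries a group, filled where the adjusted p was under 0.05. All 10 T cell points on the left are filled, between 1.23 and 4.48, and all 10 B cell points are open.

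Stimulation through the antigen receptor on control Ig beads lowered most of the group in EAE T cells. Of the 10 genes 8 fell, Gbp2 rose and Gbp5 did not pass the test, where 31.3% of all genes were called lower and 31.7% higher. Gbp7 had 276, 347 and 311 CPM in stimulated cells, against 1328, 1449.9 and 1224 CPM in unstimulated cells, a log2 change of -2.06 ± 0.08 (SE, n = 3 each, adjusted p = 1.42e-11). Tgtp2 had 39.4, 52.3 and 53.2 CPM in stimulated cells, against 241, 210.0 and 229 CPM in unstimulated cells (log2 change -2.18 ± 0.15, adjusted p = 3.5e-09). Gbp4 had 720.4, 792 and 689.6 CPM in stimulated cells, against 2324, 2101 and 2234 CPM in unstimulated cells (2.94-fold lower). For all 8 genes the highest stimulated library lay below the lowest unstimulated one.

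The fall reached 2.76-fold for Irgm2, 2.06-fold for Gbp3, 1.97-fold for Iigp1, 1.67-fold for Irgm1 and 1.49-fold for Igtp. Gbp2 went the other way. It had 2117, 2513 and 2509 CPM in stimulated cells, against 1158, 1971 and 1538 CPM in unstimulated cells (log2 change 0.67 ± 0.12, adjusted p = 0.000136), higher in 3 of 3 replicate numbers. Gbp5 had a log2 change of 0.12 with an interval of -0.12 to 0.35. Ifng was 2.55-fold higher in these stimulated cells, with 145, 365 and 202 CPM, which overlapped the unstimulated values given above. The myeloid markers summed to 37.0 to 87.8 CPM in stimulated cells, against 136 to 351 CPM in unstimulated ones. Their part in these changes was not tested.

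In naive T cells all 10 genes rose with the same stimulation, by 0.41 to 3.34 on the log2 scale with a median of 1.73, where 27.1% of all tested genes were called higher and 23% lower. Gbp2 had 1082, 912 and 1448 CPM in stimulated cells, against 178, 76.8 and 113 CPM in unstimulated cells, a log2 change of 3.34 ± 0.14 (SE, n = 3 each, adjusted p = 5.85e-13). Iigp1 had 200.2, 186 and 246 CPM in stimulated cells, against 46.6, 22.8 and 26.9 CPM in unstimulated cells (7.32-fold, adjusted p = 3.72e-12). Both genes rose in all 3 replicate numbers with no overlap between the groups.

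Gbp5 rose by 2.63 ± 0.08, Irgm1 by 1.86 ± 0.10, Gbp4 by 1.81 ± 0.09 and Igtp by 1.65 ± 0.09 on the log2 scale (SE). Gbp3 (1.52), Gbp7 (1.41), which is linked to oxidative killing, and Irgm2 (0.96) rose less. Tgtp2 moved least. It had 130.1, 107 and 146 CPM in stimulated cells, against 136, 80.1 and 92.9 CPM in unstimulated cells (log2 change 0.41 ± 0.12, adjusted p = 0.00714), and these groups overlapped. The Tgtp2 call was lost without replicate 2 (adjusted p = 0.0733), without replicate 3 (0.122) and without the replicate block (0.0734). Its near copy Tgtp1 rose by 1.64. In the same libraries Ifng had 28.1, 26.8 and 54.2 CPM in stimulated cells, against 1.17, 1.71 and 1.02 CPM in unstimulated cells, and the CD8 markers summed to 597 to 752 CPM against 926 to 1096 CPM. Their part in the rise was not tested.

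The stimulation effect itself differed between EAE and naive T cells. The unstimulated libraries in this test are those of the EAE against naive comparison above, so that the results are not independent. In the test of the difference, a comparison added after the data had been seen, all 10 genes had a lower change in EAE T cells, with differences between -3.75 (Iigp1) and -2.14 (Igtp) on the log2 scale, where 17% of all genes were called lower. The median over the 10 genes was -2.51 and over all genes -0.03. After stimulation on control Ig beads 5 of the 10 genes overlapped between EAE and naive T cells, namely Gbp3, Gbp4, Gbp7, Igtp and Irgm1. Irgm1 had 236, 269 and 247 CPM in EAE T cells, against 274, 268 and 344 CPM in naive T cells, and Igtp had 921, 1099.5 and 1002 CPM against 944, 811 and 1250.2 CPM. In EAE T cells Gbp2, Gbp5 and Iigp1 lay above and Irgm2 and Tgtp2 below all naive T libraries. Gbp2 had 2117, 2513 and 2509 CPM in EAE T cells, against 1082, 912 and 1448 CPM in naive T cells.

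In EAE B cells 6 of 10 genes rose with stimulation and none fell, where 21% of all genes were called higher and 18.8% lower. Gbp2 had 348, 74.5 and 73.5 CPM in stimulated cells, against 112, 37.5 and 37.4 CPM in unstimulated cells, a log2 change of 1.32 ± 0.19 (SE, n = 3 each, adjusted p = 8.6e-05). Irgm1, known for its part in autophagy and mitochondrial quality control, had 241, 66.5 and 78.2 CPM in stimulated cells, against 128, 54.0 and 58.7 CPM in unstimulated cells (0.67 ± 0.13, adjusted p = 0.0011). Both rose within each of the 3 replicate numbers, although the groups overlapped because replicate 1 was high in both. Iigp1 (0.82), Igtp (0.63), Gbp5 (0.50) and Gbp3 (0.31) were also called. Without replicate 1 the changes of Iigp1 (0.19, adjusted p = 0.721), Igtp (0.26, 0.242) and Gbp3 (0.24, 0.128) no longer passed, those of Gbp2, Gbp5 and Irgm1 did, and Gbp4 became called lower (-0.60, adjusted p = 0.00389). Igtp was also lost without replicate 3 (adjusted p = 0.0859), and none of the 10 was called in the fit without the replicate block.

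In stimulated naive B cells Gbp2, Gbp5, Gbp3 and Irgm1 were higher and Gbp4 and Tgtp2 lower than in unstimulated ones. Over all genes 22.7% were called higher and 17.5% lower. Gbp2 had 147, 92.7 and 98.9 CPM in stimulated cells, against 72.6, 36.2 and 35.5 CPM in unstimulated cells, a log2 change of 1.38 ± 0.10 (SE, n = 3 each, adjusted p = 4.29e-08). Gbp4 had 81.4, 52.9 and 66.1 CPM in stimulated cells, against 127, 90.2 and 102 CPM in unstimulated cells (log2 change -0.56 ± 0.10, adjusted p = 0.000361). Neither gene's groups overlapped. Gbp5 rose by 0.54, Gbp3 by 0.31 and Irgm1 by 0.31, and Tgtp2 fell by 0.78 on the log2 scale. The Irgm1 call was lost without replicate 1 (adjusted p = 0.199), without replicate 3 (0.173) and without the replicate block (0.302), and that of Tgtp2 without the block (0.0667). The difference of the stimulation effect between EAE and naive B cells was called for 0 of 10 genes by edgeR and by DESeq2. In edgeR 2 had an unadjusted p under 0.05, and 0.0865% of all genes were called.

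Anti-Btla on the beads lowered Gbp2 in B cells. In EAE B cells Gbp2 had 236, 33.0 and 33.0 CPM with anti-Btla, against 348, 74.5 and 73.5 CPM with control Ig, a log2 change of -0.95 ± 0.20 (SE, n = 3 each, adjusted p = 0.0023), and it was lower in 3 of 3 replicate numbers. Gbp5 also fell (-0.31 ± 0.09, adjusted p = 0.0201) and Tgtp2 rose (0.57 ± 0.15, adjusted p = 0.0121), where 16.5% of all genes were called lower and 13.6% higher. Gbp4 missed the threshold at 0.39 ± 0.14 (adjusted p = 0.0511). Without replicate 1, Gbp2 and Gbp5 stayed called, Gbp4 (0.41, adjusted p = 0.0392) and Irgm1 (-0.43, 0.0264) became called and Tgtp2 did not pass (0.69, 0.0783). The Gbp5 call was lost without replicate 2 (adjusted p = 0.0788) or 3 (0.0974), that of Tgtp2 without replicate 3 (0.0610) and, at 0.293, when Tgtp1 and Tgtp2 were summed. None of the 10 was called without the replicate block.

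In naive B cells Gbp2 had 61.8, 47.8 and 42.9 CPM with anti-Btla, against 147, 92.7 and 98.9 CPM with control Ig, a log2 change of -1.23 ± 0.10 (SE, n = 3 each, adjusted p = 2.74e-07). Unstimulated naive B cells had 72.6, 36.2 and 35.5 CPM, which overlapped the anti-Btla values. Gbp5 had 85.7, 79.0 and 79.8 CPM with anti-Btla, against 102, 96.5 and 95.5 CPM with control Ig (a log2 change of -0.35 ± 0.06, adjusted p = 0.000316). Neither gene's groups overlapped.

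Of the 10 genes 4 fell and 1 rose in naive B cells, where 19.7% of all genes were called lower and 13.1% higher. Gbp4 rose, with 88.8, 87.3 and 82.4 CPM with anti-Btla, against 81.4, 52.9 and 66.1 CPM with control Ig (a log2 change of 0.30 ± 0.10, adjusted p = 0.0351). These groups did not overlap. Irgm1 fell by 0.37 and Gbp7 by 0.25 on the log2 scale. The Irgm1 call was lost without replicate 1 (adjusted p = 0.247) or 3 (0.10) and that of Gbp7 without replicate 1 (0.458) or 3 (0.112). The call of Gbp4 was lost without replicate 2 (0.362) or 3 (0.142), and without the replicate block only Gbp2 and Gbp5 were called. All comparisons of anti-Btla and of stimulation share the control Ig libraries, so that a high control Ig value moves both.

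In T cells no gene of the group passed the test for anti-Btla, by edgeR or by DESeq2. In EAE T cells all 10 log2 changes were positive, 0.17 to 0.37, where edgeR called 0.0686% of all genes. An unadjusted p under 0.05 was found for 8 of the 10 and for 9.32% of all genes. Gbp2 had 2840.1, 2937 and 3026 CPM with anti-Btla, against 2117, 2513 and 2509 CPM with control Ig (a log2 change of 0.34 ± 0.12, adjusted p = 0.353), without overlap in CPM. On the TPM scale its groups overlapped, with 1048.7, 1121.9 and 1214.8 TPM against 950.2, 1003.3 and 1060.9 TPM. The mean TPM of Iigp1 was 161.8 with anti-Btla and 163.0 with control Ig, while the other genes had a higher mean with anti-Btla. In naive T cells all 10 were negative, -0.29 to -0.04, with 0% of all genes called by edgeR. An unadjusted p under 0.05 was found for 1 of the 10, beside 8.24% of all genes. With no filter on low counts Gbp2, Gbp5 and Tgtp2 were called higher in EAE T cells and Gbp3, Gbp7, Igtp and Iigp1 lower in naive T cells. Whether anti-Btla acted differently in B and T cells was not tested.

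None of the 10 genes passed the test for IFNb at 18 hours. With control Ig beads 0 of 10 were called in every cell set by edgeR and by DESeq2. Over all tested genes edgeR called 0% in naive B, EAE B and naive T cells and 0.158% in EAE T cells. DESeq2 called 2 genes in naive B, 1 in EAE B and 3 in naive T cells, and 114 of 14572 in EAE T cells. Igtp had 979.7, 804 and 1202 CPM in naive T cells with IFNb, against 944, 811 and 1250.2 CPM without it. In naive B cells it had 56.9, 30.9 and 30.2 CPM with IFNb, against 53.7, 24.6 and 30.7 CPM without. On the CPM scale the libraries with and without IFNb overlapped for all 10 genes in all 4 cell sets. On the TPM scale 6 of the 10 lay lower with IFNb in EAE T cells without overlap, such as Gbp2 with 770.3, 785 and 743 TPM, against 950.2, 1003 and 1061 TPM, and none in the other sets. The median over all genes above 5 TPM was itself shifted there, by -0.36 on the log2 scale. In EAE T cells the 10 log2 changes ran between -0.03 and 0.32 and their 95% intervals between -0.28 and 0.63, and in naive T cells the changes ran between -0.04 and 0.29 and the intervals between -0.27 and 0.53.

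Tgtp2 came nearest. It had 56.8, 52.7 and 63.6 CPM in EAE T cells with IFNb, against 39.4, 52.3 and 53.2 CPM without it (log2 change 0.32 ± 0.15, adjusted p = 0.533), and 166, 136 and 174 CPM in naive T cells with IFNb, against 130.1, 107 and 146 CPM without it (log2 change 0.29 ± 0.11, adjusted p = 0.795). It was the only member with an unadjusted p under 0.05 in each of these sets, and none had one in B cells. Fitted with no filter on low counts, Tgtp2 was called in naive T cells (0.28, adjusted p = 0.000429). Summed with Tgtp1 it was not called in any set. For B cells the 10 changes ran between -0.10 and 0.22 in EAE and between -0.14 and 0.13 in naive cells, and the widest intervals belonged to Iigp1, at -0.40 to 0.83 in EAE and -0.63 to 0.90 in naive cells, the gene with the lowest level in B cells.

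With anti-Btla beads 0 of 10 genes were called for IFNb by either tool, and 1 gene, Tgtp2 in EAE B cells (-0.40), had an unadjusted p under 0.05 in edgeR. Over all genes edgeR called 0% in naive B, EAE B and naive T cells and 0.741% in EAE T cells. DESeq2 called 5 genes in naive B, 5 in EAE B and 4 in naive T cells, and 235 of 14572 in EAE T cells. The shares over all genes that follow are those of edgeR. The difference of the IFNb effect between anti-Btla and control Ig beads was called for 0 of 10 in every set (0% of all genes), with 1 unadjusted p under 0.05. The difference between EAE and naive cells was called for 0 of 10 in B cells (0% of all) and in T cells (0.188%). The difference between T and B cells was called for 0 of 10 in naive (0%) and EAE cells (0.103%), and none of the 10 had an unadjusted p under 0.05 in these last 2 comparisons. DESeq2 called 0 of 10 in each of them. Over all genes DESeq2 called 128 for the difference between EAE and naive T cells and 0 for that in B cells. For the difference between T and B cells it called 33 genes in EAE and 10 in naive cells. For the difference between beads it called 2 in naive B, 4 in EAE B, 6 in EAE T and 11 in naive T cells.

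**Figure D5:**
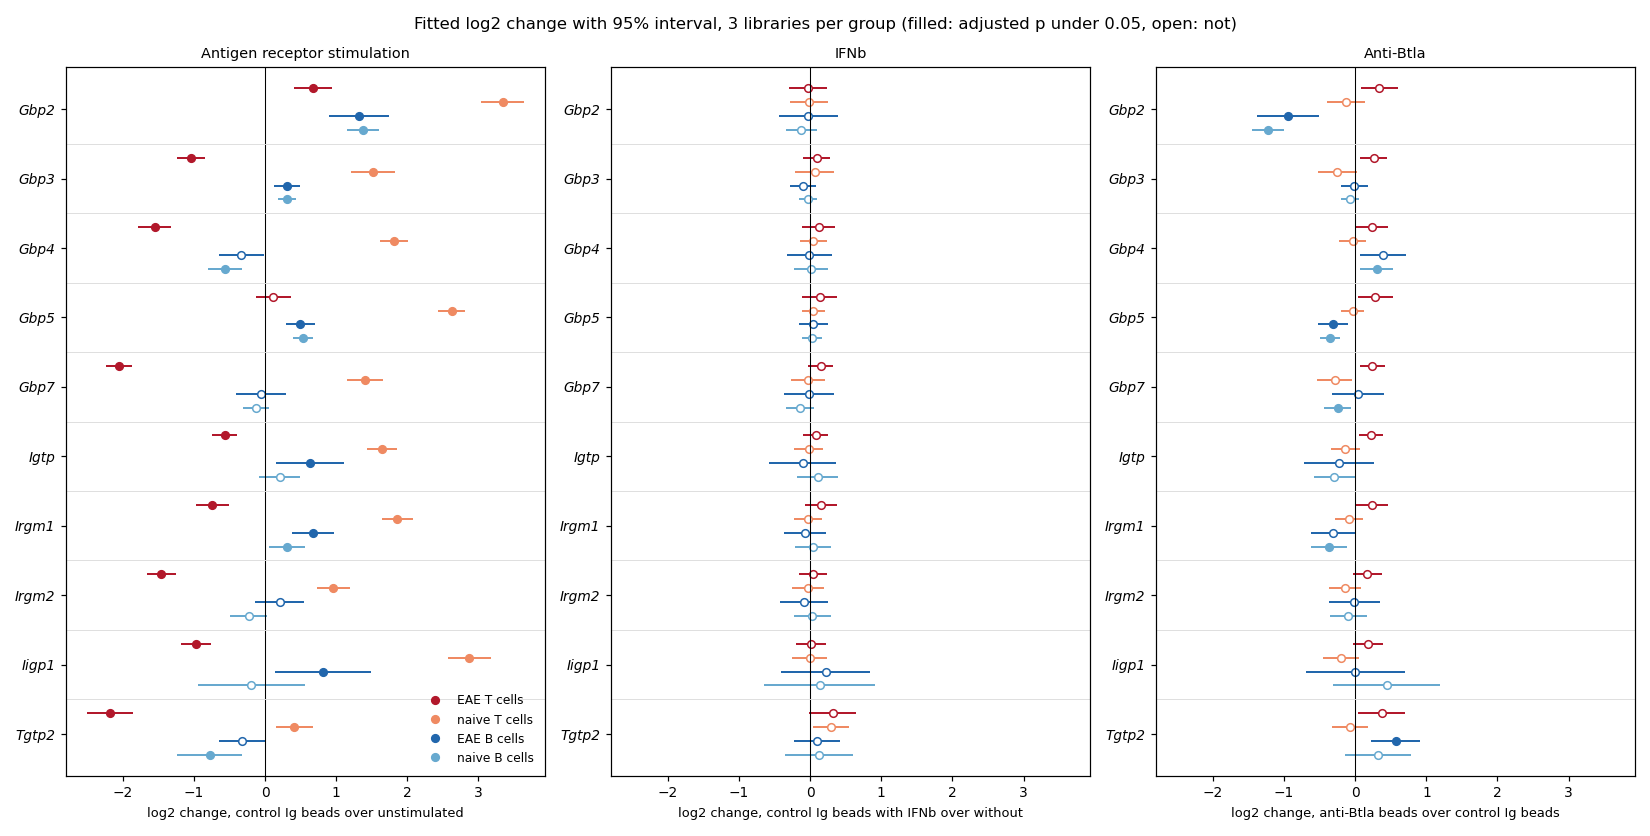
Fitted log2 change (x axis) of each gene (y axis) with its 95% interval, for stimulation (left), IFNb with control Ig beads (middle) and anti-Btla (right) in the 4 cell sets, 3 libraries a group, filled where the adjusted p was under 0.05. The left panel spans -2.18 to 3.34, with naive T cells right of 0 for all 10 genes and EAE T cells left of it for 8, whereas all 40 points in the middle are open and lie between -0.14 and 0.32.

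The other genes of the pathway were read from lists. Over all genes stimulation was called higher for 31.7% and lower for 31.3% in EAE T cells, and higher for 27.1% and lower for 23% in naive T cells. Among 21 other interferon-inducible GTPases, 0 rose and 19 of 20 tested fell with stimulation in EAE T cells, and 14 rose and 3 fell in naive T cells. Ifi47 had log2 changes of -0.50 ± 0.07 in EAE T cells (adjusted p = 1.47e-05) and 1.22 ± 0.09 in naive T cells (adjusted p = 1.45e-09). Of 10 Stat and Irf factors, 1 rose and 6 fell in EAE T cells, while 10 rose in naive T cells. Of 22 type I interferon response genes, 1 rose and 18 fell in EAE T cells, and 18 rose and 2 fell in naive T cells. Their median log2 change in EAE T cells was -1.78, beside -0.07 over all genes and -1.01 over the 10 GTPases. In naive T cells it was 1.11, beside -0.02 over all genes and 1.73 over the 10 GTPases.

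In unstimulated T cells 18 of 20 tested other GTPases, 9 of 10 Stat and Irf factors and 20 of 22 type I response genes were higher in EAE, beside 18.6% of all genes. Of 9 negative regulators of interferon signaling 3 were higher. Usp18 had a log2 difference of 1.86 (adjusted p = 0.000139), and Socs1, at 0.40 (adjusted p = 0.0551), did not pass. Of 13 genes of the autophagy conjugation machinery, which takes part in placing these GTPases on vacuoles, 2 were higher and 3 lower, a share of higher genes near that over all genes. For IFNb with control Ig beads no gene of the GTPase, Stat and Irf, type I response or interferon-gamma response lists was called by edgeR in any set. DESeq2 called more genes than edgeR in EAE T cells, 114 against 23, and its calls for the other lists are not given here. In EAE T cells the 22 type I response genes had a median log2 change of 0.50, against 0.11 for the 10 GTPases and 0.00 for all genes, with Oasl2 at 0.78 ± 0.18 (adjusted p = 0.143), Xaf1 at 0.75 and Trim30a at 0.40. In naive T cells that median was -0.08, in EAE B cells -0.04 and in naive B cells 0.28. Ifnb1 itself, the gene for IFNb, had at most 0.132 CPM in any library.

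Within each cell type the genes whose pattern lay closest to that of the GTPases were found by correlation with the mean of their standardized log2 CPM over 30 libraries, as a description over libraries that share arms and replicate numbers. In T cells, among 8663 genes, these were Gm12250 (r = 0.992), Gbp6 (0.988), Gbp10 (0.968), Birc3 (0.966) and Irf1 (0.958). Among the 8590 genes compared in B cells they included Zbp1 (0.961), Serpina3f (0.953), Gbp6 (0.950) and Ly6a (0.944). Within the 15 naive B libraries alone Gbp6 had r = 0.942 and Ly6a 0.744. Each gene was also compared with the mean of the other 9. In T cells Gbp4 (0.978), Gbp3 (0.973) and Igtp (0.959) lay closest and Tgtp2 farthest (0.257), with Gbp2 at 0.696 and Gbp5 at 0.754. In B cells Igtp (0.988) and Irgm1 (0.974) lay closest and Gbp5 farthest (0.748).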

How the data were processed

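RNA was sequenced on a HiSeq instrument from 60 libraries, deposited as 67 tables because 7 libraries had 2 runs. Per the labels and the submitters' processing notes, the authors used Salmon against GRCm38 and DESeq2, with no version given. The sources used here do not give the library kit, the strand or the transcript release. Each table holds an estimated count and a TPM value per transcript, as deposited by the authors. Transcripts were matched to genes by unversioned ID with GENCODE M21 (569 unmatched in B cell tables, 922 in T cell tables, at most 0.684% of reads). Estimated counts were summed per gene and library and rounded, TPM was summed per gene and averaged over runs. CPM is the gene sum over the library's total. Salmon divides reads among copies and transcripts that share sequence, so levels of near copies carry that uncertainty.

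The main test was edgeR 4.0.16's quasi-likelihood test with TMM scaling, filterByExpr at a minimum count of 10 and Benjamini-Hochberg adjustment over all genes tested, called at 0.05, in R 4.3.3. The 15 libraries of a cell set entered 1 fit, with the replicate number as a block because the study's statistical methods put the replicate in its models. EAE against naive and T against B used 6 libraries and no block. Effects between sets were contrasts over 30 libraries. Alternatives were DESeq2 1.42.0, no filter, no block (or a block), only the groups compared, Tgtp1 and Tgtp2 summed, and each replicate left out. The edgeR test with the replicate block was checked on simulated counts, for IFNb with control Ig beads in naive T and EAE B cells. The other fits were not checked in this way. Replicates of a group differed beyond sampling noise (chi-square per degree of freedom 4.39 to 55.3), so none was counted as a duplicate. Intervals cover the fitted spread between libraries. The 10 genes and all lists were chosen with earlier results of these data known; the comparisons of the stimulation effect between EAE and naive cells and of T with B cells were added after seeing the data. All 10 genes are named throughout, and genes of other lists by the smallest p for IFNb, with a fixed set of pathway genes. A few items are not reported here.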

Additional observations from a re-analysis of the deposited data

Results flagged for a closer look

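The stimulation effect differed between EAE and naive T cells for all 10 genes in the test of the difference itself (EAE minus naive, edgeR, log2 scale, 3 libraries a group). The differences were -3.75 for Iigp1, -3.38 for Gbp7, -3.29 for Gbp4, -2.59 for Gbp2, -2.52 for Irgm1, -2.51 for Tgtp2, -2.47 for Gbp3, -2.42 for Gbp5, -2.34 for Irgm2 and -2.14 for Igtp. All 10 lay past the threshold in the test of the difference under DESeq2 as well. These differences share the unstimulated libraries with the EAE against naive comparison and are not independent of it.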

How the results depend on the processing

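The 10 genes in 30 comparisons gave 2480 values under the alternatives, of which 2415 kept their side of the threshold, 37 lost a call and 28 gained one. The sign changed in 172, 142 of them with a library or replicate number left out, and in none of these was the gene called in either fit. For anti-Btla in EAE B cells, where 3 genes were called, DESeq2 and the fit with no filter on low counts called 5 each, the fit of only the groups compared 6 and that with no replicate block 0, and leaving out 1 replicate number gave 1 to 4. For anti-Btla in naive B cells 5 genes were called, 2 with no replicate block and 2 to 5 with 1 replicate number left out. With no filter 1 gene instead of 0 was called for IFNb with control Ig beads in naive T cells, and for anti-Btla 3 instead of 0 in EAE T cells and 4 instead of 0 in naive T cells. Stimulation in EAE B cells gave 6 calls, and 0 with no replicate block. The cause of these shifts was not tested.

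The replicate numbers were checked as pairs: same-numbered libraries deviated together by a correlation over 0.1 for every number in 14 of 16 comparisons within a cell set, and 88 of 96 libraries correlated best with their own number. A replicate block added to the comparisons without one gained 1 call, Irgm1 in naive T against B cells. The labels do not say what a shared number stands for. Iigp1 had the fewest reads of the 10 genes in B cells, and Tgtp2 carries the uncertain split with Tgtp1.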
